A study of Mus musculus with 30 samples.

Results

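Mouse embryonic stem cells (mESCs) kept for 10 passages (P10) in Enhanced Metabolic Media (EMM) were compared with mESCs kept for 10 passages in Serum/LIF (SL), across every gene of an RNA-seq count table. The comparison rested on 6 of the 30 samples analysed here, 3 libraries per medium made from total RNA, chosen by their labels and not by any measured value. In EMM, galactose replaces the glucose and pyruvate of Serum/LIF, while serum, LIF and glutamine are in both media. All samples came from the E14tg2a line of mESCs with no genetic change named in the labels, and were grown on gelatin without a feeder layer named in the methods. The study's methods describe the replicates as independent experiments, and all stem from 1 line. Whether the 3 libraries of a medium were passaged apart or split late from 1 culture is not given in the sources used here, so the p-values measure only the spread between these samples, which may be technical. Cells of the same experiment kept for 10 passages in 2i/LIF (2iL, a medium that blocks the MEK and GSK3 kinases) and those kept for 20 passages (P20) in EMM or SL are used for comparison only.

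Galactose enters glycolysis through the Leloir pathway, which is slow, so that cells fed on galactose draw more of their energy from respiration. Glucose itself is sensed by the transcription factor MondoA (Mlxip) and its relative ChREBP (Mlxipl), which pair with Mlx, respond to glucose 6-phosphate and activate Txnip and Arrdc4. mESCs in Serum/LIF are a mixed culture, in which naive cells, close to the early epiblast of the blastocyst, exchange with cells that express genes of later epiblast or of other lineages. LIF and its mediator STAT3 favour the naive state, whereas FGF and ERK signalling moves cells towards differentiation.

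Total counts ran from 7329846 to 20111946 in EMM and from 13293525 to 16072676 in SL, and 16054 of the 55487 genes in the table passed the filter on low counts. Log2 CPM values correlated at 0.977 to 0.985 between EMM libraries, at 0.983 to 0.987 between SL libraries and at 0.924 to 0.936 across media. The first principal component of the 500 most variable genes held 75.8% of their variance and separated the media. The shallowest library, EMM replicate 3, lay furthest from 0 on the second component, which held 9.3%. SL replicate 3 lay below the other SL libraries for a group of primitive streak genes described further on. Markers of mESCs were present in every library: the 10 markers, among them Pou5f1 and Sox2, summed to between 101200 and 133100 normalized counts in EMM and between 86330 and 90250 in SL.

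After 10 passages, 1070 genes were higher in EMM (6.67% of those tested) and 1683 were lower (10.5%), 17.1% in all, where a call needed an adjusted p under 0.01 in edgeR's quasi-likelihood test and more than a 2-fold change (1 on the log2 scale). With the adjusted p alone, 3004 genes were higher (18.7%) and 2997 were lower (18.7%), 37.4% in all, and these shares are the background for the gene lists below. The median log2 fold change of all tested genes was 0.012. The 3 EMM libraries all lay above the 3 SL libraries for 4625 genes (28.8%) and all below them for 4723 (29.4%), 58.2% in all. The groups did not overlap for any gene given below with the values of its 6 libraries at P10, other than Galk1, Gata4, Gata6, Eomes and Gata3.

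**Figure D1:**
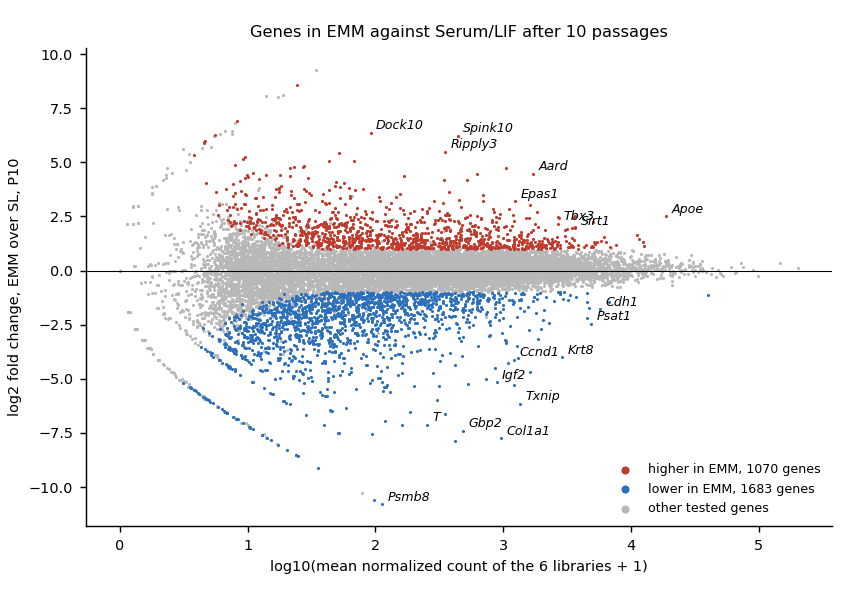
Log2 fold change of each tested gene (EMM over SL, P10) against the log10 of its mean normalized count plus 1 over the 6 libraries. Red points are the 1070 genes called higher, blue points the 1683 called lower and grey points all others, and the lower arm reaches further from 0 than the upper one.

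Several of the largest rises came from genes near silent in SL. Dock10, a guanine nucleotide exchange factor, had 205, 187 and 147 normalized counts in the EMM libraries and 1.93, 0 and 4.63 in SL, a log2 fold change of 6.36 ± 0.43 (SE). Spink10 had 904, 856 and 843 normalized counts in EMM and 4.82, 11.9 and 18.5 in SL. Ripply3, a transcriptional repressor that partners Tbx1, had 620.4, 720.1 and 724 in EMM and 8.68, 15.9 and 22 in SL. In each of these 3 genes all EMM libraries lay far above all SL libraries. Mgat4c, C1qtnf9, Ankrd33b, Aard, Pla2g7, Matn1, Cyp2c69, Fam189a2 and Nlrp4f completed the 12 largest rises, with log2 fold changes from 4.17 to 5.08. Among them Ankrd33b (2013, 2045 and 1984 in EMM, 99.3, 65.5 and 63.6 in SL) and Aard (2730.1, 3419.6 and 3748 in EMM, 165, 133 and 143 in SL) reached the highest levels.

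The 12 genes with the largest falls had at most 9 counts in any EMM library. Psmb8, a catalytic subunit of the immunoproteasome, had 269, 234 and 167 normalized counts in SL and no count in EMM, which makes it at least 48-fold lower against a floor of 3 counts per library. Sprr2a2, a cornified envelope gene, and Stmn4, a stathmin, also had no count in EMM and were at least 41.3 and 14.9-fold lower. Gbp3, Oasl2, Cd44 and Cav1 had 1 or 2 counts in all EMM libraries together. The fold by which their summed counts were lower, per effective library size, was 218 for Gbp3 (95% exact binomial interval 60 to 1800, for counting error only), 235 for Oasl2 (41.8 to 9300), 231 for Cd44 (41.1 to 9140) and 179 for Cav1 (31.8 to 7090). Col1a1 fell by 7.74 on the log2 scale, from 2103, 2016 and 1565 normalized counts in SL to 4.82, 9.35 and 18.3 in EMM. Gbp2b and Gbp2 encode interferon-inducible GTPases. Gbp2b had 5.63, 1.56 and 0 normalized counts in EMM and 867, 954 and 691 in SL, and Gbp2 had 7.23, 3.12 and 4.58 and 1086, 1082 and 717. The Gbp and Sprr2a genes lie in families of near-identical copies, so reads could have been split between their members. T and Sp5, given with the Wnt targets, completed the 12 largest falls.

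The glucose-sensing list had the lowest median of the metabolic lists. Of its 5 genes, all tested, 3 were lower and none was higher, and the median log2 fold change was -2.03. Txnip, which restrains glucose uptake and binds thioredoxin, had 27.3, 43.6 and 50.4 normalized counts in the EMM libraries against 2380.2, 2617 and 2942 in SL (log2 fold change -6.15 ± 0.21, adjusted p = 1.94e-13). Arrdc4, its arrestin-domain relative, had 57.9, 63.9 and 50.4 in EMM against 906, 878 and 870 in SL (-3.93 ± 0.20, adjusted p = 2.41e-11). Every EMM library of both genes was more than 10-fold below every SL library. Mlxipl had 26.5, 39 and 27.5 in EMM and 119.6, 111 and 147 in SL (-2.03 ± 0.26, adjusted p = 3.99e-06). For Mlx and Mlxip the groups overlapped, with log2 fold changes of 0.066 and -0.13 and adjusted p-values of 0.722 and 0.366.

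Txnip lies at chr3:96557957-96561883, plus strand, and Arrdc4 at chr7:68736995-68749241, minus strand (GRCm38, GENCODE M21). Their promoters are shown because MondoA and ChREBP bind E-box-like elements, and the motifs were chosen after these values were seen. Each sequence runs from 250 bases before to 50 bases after the RefSeq start (GRCm38.p6). The double carbohydrate response element, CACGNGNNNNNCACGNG on either strand, is in capitals in the Txnip promoter at chr3:96557707-96558006 (plus strand), and it was found in 0.0487% of 32851 promoters. The E-box, CACGTG, is in capitals in the Arrdc4 promoter at chr7:68749189-68749488 (minus strand), and it was found in 7.15% of the same promoters. Among the 14745 promoters of tested genes these shares were 0.0882% and 9.79%.
Txnip: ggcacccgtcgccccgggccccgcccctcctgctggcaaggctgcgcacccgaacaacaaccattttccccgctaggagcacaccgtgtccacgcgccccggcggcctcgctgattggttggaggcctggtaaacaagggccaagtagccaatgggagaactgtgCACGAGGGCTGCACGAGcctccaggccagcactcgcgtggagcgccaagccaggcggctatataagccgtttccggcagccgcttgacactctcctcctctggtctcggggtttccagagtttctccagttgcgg
Arrdc4: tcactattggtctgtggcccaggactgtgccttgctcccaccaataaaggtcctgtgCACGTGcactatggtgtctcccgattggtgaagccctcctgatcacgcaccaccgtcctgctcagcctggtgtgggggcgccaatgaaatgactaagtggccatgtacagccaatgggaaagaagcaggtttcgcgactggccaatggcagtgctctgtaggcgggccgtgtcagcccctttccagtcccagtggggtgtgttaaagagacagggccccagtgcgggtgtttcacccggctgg
The Txnip match begins 85 bases before the start and the Arrdc4 match 193 bases before it. The promoters of Mlx, which did not pass the test, and of Mlxipl also held an E-box, and no E-box was found in those of Mlxip and Txnip.

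Of 7 tested Leloir pathway genes, 3 were higher and none was lower. Galm, the mutarotase that opens the pathway, had 445, 439.5 and 431 normalized counts in EMM and 217, 191 and 192 in SL (1.13 ± 0.10, adjusted p = 3.16e-08). Ugp2, which makes the UDP-glucose that the pathway recycles, had 760.3, 851 and 761 and 523, 539.7 and 529 (0.58 ± 0.083). Galt, the uridylyltransferase, had 369, 349 and 463 and 249.8, 299.6 and 268 (0.52 ± 0.15, adjusted p = 0.00726). The call of Galt was lost when EMM replicate 3 was left out (0.41, adjusted p = 0.037), and also without EMM replicate 1 (adjusted p = 0.0123), SL replicate 1 (0.0302) or SL replicate 3 (0.0206), and under 3 other settings (adjusted p from 0.0116 with the size factors of DESeq2 to 0.0289 with library totals). Galk1, the kinase of the pathway, had 1547, 1676 and 1975 in EMM and 1778, 1949.5 and 1786 in SL (-0.09, adjusted p = 0.577). Pgm1 (0.62) and Pgm2 (-0.19) did not pass the test either, though Pgm1 passed when the fit held only the 2 groups (adjusted p = 0.000495) and with no filter on low counts (adjusted p = 1.64e-06).

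Among 22 glycolysis genes, 6 were higher and 3 were lower, and the median log2 fold change was 0.17. The higher genes were enzymes. Ldhb, the lactate dehydrogenase subunit that favours the oxidation of lactate, had 9222, 9562 and 8869.8 normalized counts in EMM and 4423, 4663 and 4119.6 in SL (1.07 ± 0.12, adjusted p = 7.52e-07). Hk2, a hexokinase, had 12255, 13050 and 14972 and 6608, 6951 and 7081 (0.96 ± 0.16, adjusted p = 8.24e-05). The phosphofructokinases Pfkp (0.82 ± 0.14) and Pfkm (0.74 ± 0.11) rose as well. The lower genes carry sugars or lactate across the cell membrane. Slc2a3, a high-affinity glucose transporter, had 17270, 15369 and 15463 in EMM and 24203, 28507 and 24584 in SL (-0.68 ± 0.08, adjusted p = 1.27e-06). Slc2a1, a second glucose transporter, had 9236, 9049 and 9688 and 13097, 13916 and 13431 (-0.53 ± 0.13, adjusted p = 0.0023), and missed the threshold without EMM replicate 2 (adjusted p = 0.0132) or SL replicate 2 (adjusted p = 0.0122). Without either of those 2 libraries, 1 glycolysis gene was lower.

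Of 14 genes that admit pyruvate to the mitochondrion, 7 were higher and 4 were lower. Mpc1, a subunit of the mitochondrial pyruvate carrier, had 335, 354 and 197 normalized counts in EMM and 94.5, 102 and 91.4 in SL (1.64 ± 0.26, adjusted p = 3.99e-05). Pcx, which makes oxaloacetate from pyruvate, had 1444, 1362 and 1608 and 575, 501 and 492 (1.49 ± 0.11, adjusted p = 4.13e-09). The kinases that switch off pyruvate dehydrogenase split. Pdk1 rose (0.88 ± 0.15) and Pdk2 fell (-1.02 ± 0.21), as did Pdp1 (-0.65 ± 0.14), a phosphatase that switches the enzyme on.

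In the TCA cycle and glutamine list, 7 of 23 genes were higher and 6 were lower. Idh2, the mitochondrial NADP-dependent isocitrate dehydrogenase, had 4648, 4859.8 and 4907 normalized counts in EMM and 1370.5, 1363 and 1215 in SL (1.87 ± 0.071, adjusted p = 1.04e-12). Glud1, which feeds glutamate into the cycle, had 14513, 15186 and 15598 and 9008, 8614 and 8806 (0.78 ± 0.059, adjusted p = 5.5e-09). The aminotransferases Got2 (-0.62 ± 0.078) and Gpt2 (-0.77 ± 0.10) fell with Suclg2 (-0.87 ± 0.13), a subunit of succinyl-CoA synthetase.

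Fatty acid oxidation genes were higher for 10 of 20 and lower for 1, with a median log2 fold change of 0.35. Acaa2, the last enzyme of the mitochondrial cycle, had 1602, 1683 and 1755 normalized counts in EMM and 438, 401 and 373 in SL (2.05 ± 0.093, adjusted p = 8.16e-12). Slc25a20, the carnitine-acylcarnitine carrier, had 1231, 1266 and 1200.3 and 357, 359 and 340.1 (1.81 ± 0.12). Cpt1a, the rate-limiting entry step, had 1563, 1468 and 1194 and 611, 672 and 581 (1.19 ± 0.13), and Acadm, a medium-chain dehydrogenase, rose by less (0.92 ± 0.12). No gene of the list was lower without EMM replicate 1, EMM replicate 3 or SL replicate 2, and 2 were without SL replicate 1, with library totals alone, with no filter or a minimum of 10 counts per library, and in DESeq2.

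Of 76 nuclear-encoded respiratory chain genes, 16 were higher and none was lower, beside a background of 18.7% of all genes higher. That count was 9 with library totals alone or a minimum of 10 counts per library, 23 once the filter on low counts was dropped, and 26 when only the libraries of both groups were fitted. It was 9 without EMM replicate 2 and 10 without either SL replicate 2 or SL replicate 3. None of the 13 genes of the mitochondrial genome passed the edgeR test (1 had an unadjusted p under 0.05) or that of DESeq2, while 6 were higher once the filter on low counts was dropped and 1 when only the libraries of both groups were fitted. Their summed level varied within EMM from 122300 to 283400 normalized counts and in SL from 141300 to 177400.

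**Figure D2:**
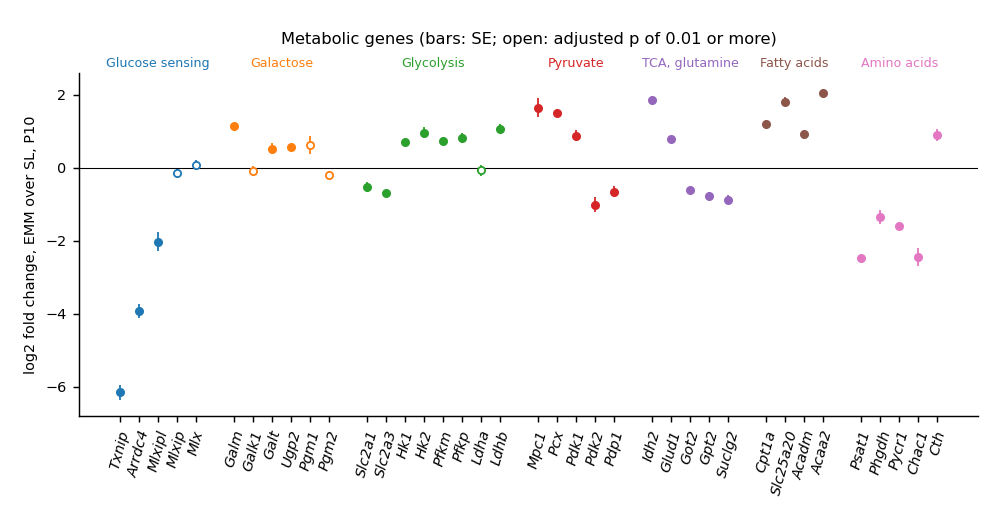
Log2 fold change (EMM over SL, P10) of metabolic genes grouped by pathway, filled where the adjusted p was under 0.01. Bars are the SE derived from edgeR's F statistic for 3 against 3 libraries in the model of all 18. The glucose-sensing targets Txnip and Arrdc4 lie furthest below 0, and the enzymes of fatty acid oxidation shown lie above it.

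Of 24 cholesterol synthesis genes, 11 were lower, 1 was higher and 12 did not pass the test, with a median of -0.36. Dhcr7, the last step of the pathway, had 347, 373 and 282 normalized counts in EMM and 925, 997 and 953 in SL (-1.51 ± 0.10, adjusted p = 1.64e-09). Hsd17b7 (-0.99 ± 0.13) and Insig1 (-0.78 ± 0.10), a brake on sterol synthesis, also fell, and the 1 higher gene was Tm7sf2 (0.83 ± 0.16).

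The amino acid response and serine synthesis list had 11 of 23 genes lower and 4 higher. Psat1, an aminotransferase of serine synthesis, had 1519.7, 1479 and 1457 normalized counts in EMM and 8176, 8684 and 7896 in SL (-2.47 ± 0.072, adjusted p = 3.29e-14). Phgdh, the first enzyme of that route, had 1439, 1718 and 2254 and 4614, 4716 and 4349.8 (-1.35 ± 0.20). Chac1, a glutathione-degrading target of the stress factor Atf4, had 37.8, 37.4 and 45.8 and 211, 231 and 208 (-2.45 ± 0.24). Ddit4 (-1.67 ± 0.15), an inhibitor of mTORC1, and Pycr1 (-1.6 ± 0.12), of proline synthesis, fell too. Cth (0.89 ± 0.16), which makes cysteine, and the arginine transporter Slc7a3 (0.65 ± 0.074) rose. In the short list of threonine and glycine breakdown, 3 of 6 genes were higher and 1 was lower (2 with library totals alone, with a minimum of 10 counts per library and in DESeq2), with Tdh, the threonine dehydrogenase on which mESCs depend, at 8386, 8577 and 8618 in EMM and 5736, 5305 and 4928 in SL (0.68 ± 0.085).

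Lysosome genes were higher for 13 of 18 and lower for none, with a median of 0.77. Hexa, a subunit of hexosaminidase, had 2835, 2936 and 3232 normalized counts in EMM and 643, 828 and 746 in SL (2.02 ± 0.14, adjusted p = 2.07e-09). Tfeb, the transcription factor that drives lysosomal genes, had 1508, 1672 and 1729.5 and 557, 539.7 and 412 (1.7 ± 0.16). The cholesterol carrier Npc2 (1.34 ± 0.084) also rose. No SL library of these 3 genes reached the lowest EMM library. Without SL replicate 1, 1 lysosome gene was lower, and with library totals alone 11 were higher and 2 were lower. With no filter on low counts 2 were lower too, and 1 was under each of the 5 other settings run, DESeq2 among them.

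Hypoxia genes were higher for 6 of 15 and lower for 2, although no low-oxygen treatment is named in the labels. Epas1, which encodes HIF-2alpha, had 2344, 2291 and 2039 normalized counts in EMM and 225, 221 and 283 in SL (3.2 ± 0.11, adjusted p = 3.89e-13). Ndrg1 (1.71 ± 0.23) and the histone demethylase Kdm3a (1.17 ± 0.13), both induced by hypoxia, rose, and P4ha2, a collagen prolyl hydroxylase, fell (-0.71 ± 0.15). Of the 2 lower genes, 1 was lower without SL replicate 2 or without SL replicate 3.

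Antioxidant genes were higher for 7 of 14 and lower for 1. Nqo1, a quinone reductase and a marker of NRF2 activity, had 1559, 1493 and 1289.7 normalized counts in EMM and 228, 168 and 211 in SL (2.85 ± 0.14, adjusted p = 1.47e-11). Nfe2l2, the gene of NRF2 itself, had 1902, 1668 and 1248 and 769.6, 808 and 827 (1.01 ± 0.16), and Srxn1, which repairs peroxiredoxins, rose as well (1.29 ± 0.093). Gpx2 was the lower gene, with 53.8, 62.3 and 16 in EMM and 122, 124 and 116 in SL (-1.33 ± 0.29).

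Of 15 sirtuin and NAD salvage genes, 3 were higher and 1 was lower. The nuclear deacetylase Sirt1 had 5724, 6102 and 5548 normalized counts in EMM and 1540.2, 1397 and 1581 in SL (1.94 ± 0.072, adjusted p = 9.15e-13). Sirt6 (0.83 ± 0.11) and Sirt7 (0.82 ± 0.13), also nuclear, were the other higher genes. None was lower without EMM replicate 1, EMM replicate 2, SL replicate 1 or SL replicate 2, with no filter on low counts, or with only the libraries of both groups. Endoplasmic reticulum chaperones were higher for 6 of 16, with Pdia3 (0.83 ± 0.089) the largest rise, and Herpud1, a target of the unfolded protein response, was the 1 lower gene (-0.90 ± 0.16).

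Of 10 mESC markers, 5 were higher and 1 was lower, and each moved by less than 1 on the log2 scale. Pou5f1 had 24339, 26877 and 30907 normalized counts in EMM and 19093, 17332 and 17371 in SL (0.61 ± 0.093, adjusted p = 2.8e-05). Sox2 had 6799.8, 6884 and 6872 and 4972, 4798 and 4814 (0.50 ± 0.069), and Fgf4, a target of both, rose most (0.92 ± 0.076). Nanog had 4021, 3819 and 3711 in EMM and 5062, 4659 and 4134 in SL, a log2 fold change of -0.26 ± 0.11 that missed the threshold (adjusted p = 0.0541), and passed it without the filter on low counts (-0.34, adjusted p = 0.00213). Lin28a, an RNA-binding protein, was the lower marker, with 6208, 6529 and 6348 in EMM and 8834, 8556 and 8193 in SL (-0.42 ± 0.10, adjusted p = 0.00178), and missed the threshold without SL replicate 1 (-0.38, adjusted p = 0.0114).

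Of 15 naive pluripotency genes, 10 were higher and 1 was lower (2 with no filter on low counts), with a median log2 fold change of 0.83. Tbx3, a T-box factor downstream of LIF, had 4608, 4137 and 4378 normalized counts in EMM and 1009, 959 and 966 in SL (2.16 ± 0.084, adjusted p = 1.28e-12). Tfcp2l1, which acts with Esrrb and Klf factors, had 8660.3, 9091 and 9216 and 3840.4, 3834 and 3207 (1.31 ± 0.10). Tcl1 (1.7 ± 0.12), a coactivator of AKT, and the nuclear receptor Nr0b1 (1.23 ± 0.10) followed. No EMM library of these 4 genes fell within the range of SL. The exception in the list was Dppa3, a maternal factor that protects DNA methylation in the zygote and is on in only some cells of Serum/LIF cultures: it had 5.63, 7.79 and 9.16 in EMM against 644, 637 and 802 in SL (-6.62 ± 0.60, adjusted p = 6.11e-08).

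Of 17 genes of formative and primed pluripotency, 11 were lower and 2 were higher, with a median of -1.28. Pou3f1, the POU factor of later epiblast, had 88.4, 84.2 and 91.6 normalized counts in EMM and 781, 830.4 and 905 in SL (-3.25 ± 0.13, adjusted p = 1.24e-12). Fgf5, the usual marker of primed epiblast, had 22.5, 31.2 and 52.7 and 167, 188 and 147 (-2.34 ± 0.30). Dnmt3b, the de novo DNA methyltransferase of that stage, had 4203, 3515 and 3157 and 9838, 9010.3 and 10620 (-1.43 ± 0.13). The zinc finger factors Sall2 (-2.41 ± 0.22) and Zic2 (-2.29 ± 0.23) fell alongside them. Foxd3 was the larger of the 2 rises (1.52 ± 0.16), and 1 gene of the list was higher without EMM replicate 1 or with library totals alone. In bulk RNA, fewer cells of a type and less RNA of that type per cell cannot be told apart, which applies to every lineage list here.

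LIF and STAT3 pathway genes were higher for 5 of 13 and lower for 2. Lifr, the LIF receptor, had 2546, 2383 and 2109.8 normalized counts in EMM and 915, 999 and 915 in SL (1.32 ± 0.09, adjusted p = 1.7e-09). Gbx2, a target of STAT3, had 598, 614 and 683 and 244, 212 and 171 (1.58 ± 0.14), and shares 43.5% of its exon bases with a transcript on the opposite strand that also rose (log2 fold change 1.38). Socs3, the feedback inhibitor, rose by 0.77 ± 0.13. Jak2, a Janus kinase, fell (-1.1 ± 0.18), and so did the STAT3 target Pim1 (-1.4 ± 0.08).

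Readouts of ERK signalling were higher for 7 of 16 and lower for 4, or 2 without EMM replicate 3 or SL replicate 2 and with a minimum of 10 counts per library. Spry4 and Dusp6 led the rises. Spry4 had 6581, 5893 and 5818 normalized counts in EMM and 1144, 1053 and 1146 in SL (2.45 ± 0.11, adjusted p = 8.07e-12), and Dusp6, an ERK phosphatase, had 3145, 2975 and 3058 and 1091, 1098 and 1076 (1.49 ± 0.10). Etv4 (1.07 ± 0.13) and Myc (0.97 ± 0.12) rose too. The immediate-early gene Fos had 1121, 1024 and 971 in EMM and 2469.9, 2809.6 and 1998 in SL (-1.22 ± 0.20). Dusp5, of the same family as Dusp6, fell similarly (-1.26 ± 0.14).

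Wnt targets were lower for 8 of 12 and higher for 2, with a median of -1.11, and 4 were lower with a minimum of 10 counts per library. Sp5 had 2.41, 3.12 and 0 normalized counts in EMM and 426, 393 and 129.6 in SL, a summed count 152-fold lower (95% exact binomial interval 64.8 to 468). T (Brachyury), the primitive streak factor, had 2.41, 6.23 and 2.29 and 698, 597 and 212 (-7.14 ± 0.52). Rnf43, a ligase that clears Wnt receptors (-2.63 ± 0.49), the transcription factor Tcf7 (-1.42 ± 0.18) and the feedback gene Axin2 (215, 210.4 and 156 in EMM, 462, 424 and 244 in SL, -0.94 ± 0.20) fell as well. For Sp5, T and Axin2 the third SL library lay well below the other two and still above every EMM library. Notum, which inactivates Wnt ligands, rose (1.83 ± 0.16), and shares 29.4% of its exon bases with an antisense transcript that also rose (log2 fold change 1.02). The Sp5 promoter, chr2:70474673-70474972 on the plus strand of GRCm38.p6, is shown because Sp5 is a direct Wnt target, with the TCF motif CTTTGAT in capitals, on either strand. This motif was in a promoter of 4.29% of 27025 genes, and of 3.01% of the 11563 tested genes among them. Of 9 Wnt list genes with a promoter in the table, it was in that of Sp5 alone, 104 bases before the start.
Sp5: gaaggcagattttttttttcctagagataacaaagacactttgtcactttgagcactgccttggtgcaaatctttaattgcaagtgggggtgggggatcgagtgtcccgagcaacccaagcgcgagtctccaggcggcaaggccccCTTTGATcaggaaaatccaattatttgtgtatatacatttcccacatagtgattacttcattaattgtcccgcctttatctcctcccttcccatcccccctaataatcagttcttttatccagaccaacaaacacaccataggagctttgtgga

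In the Nodal and BMP list, 6 of 16 genes were higher and 8 were lower. Bmp4, a ligand that works with LIF to hold off neural fate, had 2823, 2776 and 2435 normalized counts in EMM and 583, 475 and 442 in SL (2.42 ± 0.21, adjusted p = 2.61e-08). Id4, of a family of BMP targets, had 360, 391 and 415 and 62.7, 87.3 and 57.8 (2.48 ± 0.17). The Nodal target Lefty1 fell (-1.3 ± 0.19), and so did Fst, an activin antagonist (68.3, 74.8 and 110 in EMM, 286, 258 and 127 in SL, -1.47 ± 0.26).

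**Figure D3:**
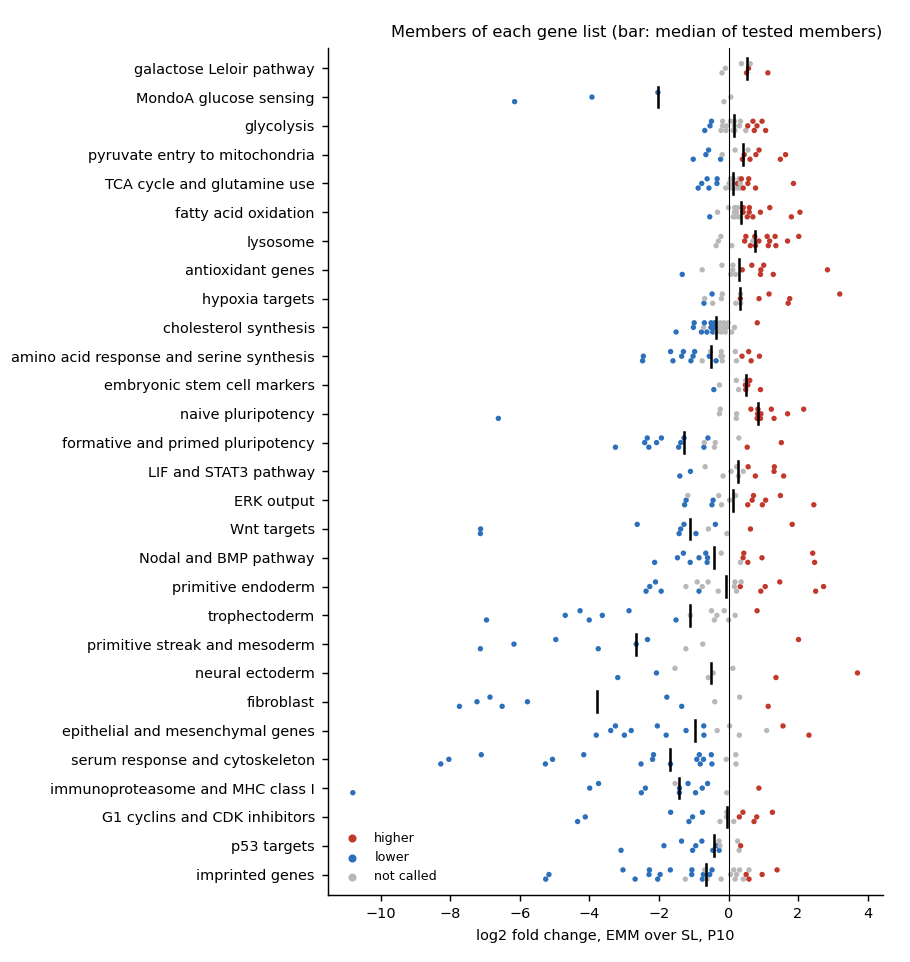
Log2 fold change (EMM over SL, P10) of every tested member of 29 gene lists, red where higher and blue where lower at an adjusted p under 0.01 and grey otherwise, with a black bar at each median. The medians of the lysosome and naive lists lie to the right of 0, and those of the formative, mesoderm, fibroblast, serum response and MHC lists lie to the left.

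Primitive endoderm genes split, 6 of 20 higher and 5 lower, or 3 and 2 with a minimum of 10 counts per library, and the founding factors of that lineage were low in both media. Gata4 had 32.1, 18.7 and 43.5 normalized counts in EMM and 42.4, 60.5 and 35.9 in SL (-0.59 ± 0.32, adjusted p = 0.144), and Gata6 had 8.84, 12.5 and 11.5 and 7.72, 8.93 and 8.1 (0.36 ± 0.52, adjusted p = 0.589). Sox7 rose from 1.93, 6.94 and 5.78 to 37, 40.5 and 18.3 (2.73 ± 0.44, adjusted p = 4.63e-05). The summed level of the list, 46190 to 58810 in EMM and 22980 to 24540 in SL, came in large part from Apoe, which many cell types express (26314, 31705 and 37410 in EMM, 5656, 5759 and 5379 in SL, 2.51 ± 0.15). Of the basement membrane genes, Col4a1 rose (1.47 ± 0.16) and Lamb1 fell (-2.27 ± 0.21), as did the endocytic adaptor Dab2 (-2.37 ± 0.36).

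Trophectoderm genes were lower for 7 of 15 and higher for 1, with a median of -1.10. Keratins of simple epithelium fell: Krt8 had 273, 295 and 469.6 normalized counts in EMM and 6091, 5134 and 4942 in SL (-4.01 ± 0.19, adjusted p = 1.47e-11), and Krt18, its partner, had 86.8, 122 and 172 and 3200, 2788 and 3286 (-4.7 ± 0.21). Krt19 (-4.27 ± 0.19) and Krt7 (-6.96 ± 0.59) fell with them. Cdx2, the trophectoderm factor, had 4.82, 4.68 and 4.58 in EMM and 65.6, 67.5 and 46.3 in SL (-3.63 ± 0.34, adjusted p = 8.61e-08). Eomes had 170.4, 171 and 115 and 209, 216 and 76.4 (-0.12 ± 0.31, adjusted p = 0.766), and Gata3 had 17.7, 6.23 and 6.87 and 22.2, 13.9 and 11.6 (-0.49 ± 0.57, adjusted p = 0.497), so neither passed the test. The 1 higher gene was Tead4 (0.82 ± 0.11), which is also expressed in mESCs.

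Primitive streak and mesoderm genes were lower for 6 of 9 and higher for 1, and the list summed to between 128.6 and 143.4 normalized counts in EMM and between 483.6 and 1234 in SL. The median was -2.66, or -2.33 with the genes of at most 3 counts in every EMM library set to that floor. Wnt3, which starts the streak, had 4.02, 4.68 and 13.7 in EMM and 256, 236 and 105 in SL (-4.97 ± 0.44), and Fgf8 had 6.43, 7.79 and 4.58 and 105, 109 and 48.6 (-3.75 ± 0.52). Lhx1, a LIM homeobox factor, had 1 count in all EMM libraries together and 55.9, 43.7 and 20.8 normalized counts in SL (95.8-fold lower, interval 16.9 to 3810). In each of these genes, as in T, SL replicate 3 was the lowest SL library and the groups did not overlap. Kdr, the receptor of early mesoderm and endothelium, was the higher gene (93.2, 103 and 82.5 in EMM, 20.3, 15.9 and 33.5 in SL, 2.01 ± 0.36).

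Neural genes had no common direction, 2 of 8 higher and 2 lower, or 1 and 1 with a minimum of 10 counts per library. Sox1, an early neural marker, had 108, 137 and 137 normalized counts in EMM and 17.4, 5.95 and 4.63 in SL (3.71 ± 0.32, adjusted p = 2.48e-08), whereas Nes, the filament gene of neural progenitors, had 178, 217 and 222 and 1758, 2043 and 1735 (-3.19 ± 0.21).

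Fibroblast genes were lower for 7 of 10 and higher for 1, and summed to between 478.5 and 560.2 normalized counts in EMM and between 2539 and 2976 in SL. The median of -3.78 became -1.71 with the genes of at most 3 counts set to that floor. Besides Col1a1, Col1a2 had 2.41, 4.68 and 6.87 in EMM and 334, 347 and 427 in SL (94.5-fold lower, interval 49.6 to 207), and Col3a1 had 0, 3.12 and 2.29 and 93.5, 76.4 and 69.4 (62.3-fold lower, 21 to 304). Postn and Twist2 had no count in EMM and were at least 3.14 and 4.03-fold lower. The defining markers Dcn and Lum did not pass the filter on low counts. Thy1, which mESCs also express, was the 1 higher gene (357, 304 and 259 in EMM, 115, 167 and 139 in SL, 1.14 ± 0.22). The part of fibroblast-like cells in the other differences was not tested.

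Genes of the 2-cell-like state, a rare state of mESC cultures, were lower for 6 of 11 and higher for none, but only for 3 without EMM replicate 1 or without EMM replicate 2, and for 10 with no filter on low counts. With a minimum of 10 counts in every library, which leaves genes near 0 in EMM untested, no gene of the 2-cell, fibroblast or primitive streak list was higher or lower, and the 1 lower gene of the naive and of the antioxidant list was not called either. Zscan4c had 4.02, 7.79 and 9.16 normalized counts in EMM and 79.1, 86.3 and 146 in SL (-4.04 ± 0.83, adjusted p = 0.000583), and reads of the Zscan4 copies are hard to tell apart. The list summed to between 34.29 and 105.3 in EMM and between 417.6 and 805.2 in SL.

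The serum response and cytoskeleton list holds SRF and contractile genes, and also caveolins, annexins and other genes that are not contractile. Of its 19 tested genes, 16 were lower and none was higher, with a median of -1.67, and 9 were lower with a minimum of 10 counts per library. Tagln (transgelin) had 52.2, 43.6 and 103 normalized counts in EMM and 2462, 2202 and 2446 in SL (-5.27 ± 0.25, adjusted p = 1.47e-11). It shares 62.4% of its exon bases with a transcript on the opposite strand, which was higher in EMM (log2 fold change 1.70). Acta2, smooth muscle actin, had 33.8, 28.1 and 41.2 and 719, 501 and 598 (-4.16 ± 0.25), and Cnn1, calponin, had 3.21, 7.79 and 6.87 and 184, 181 and 179 (-5.06 ± 0.33). Ankrd1 and Cav2 had no count in EMM and were at least 8.28 and 7.05-fold lower. Srf itself had 489, 419 and 467 in EMM and 863, 776 and 827 in SL (-0.84 ± 0.092), and Myl9, a myosin light chain, had 28.1, 34.3 and 50.4 and 214, 219 and 180.5 (-2.52 ± 0.26). The same amount of serum is in both media according to the methods.

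SRF binds the CArG box. In 16 genes of the list with a promoter in the table, 4 held a match (Cnn2, Myl9, Srf and Vcl), against 1.81% of all 27025 genes with a promoter there. Of the 16 genes, 14 were lower in EMM, these 4 among them. The promoters of Myl9 (chr2:156775214-156775513, plus strand) and Srf (chr17:46556113-46556412, minus strand, GRCm38.p6) are shown with the matches in capitals, 161 bases before the start in Myl9 and 82 and 62 bases before it in Srf. They were chosen after the values were seen, and a match is no evidence of binding in these cells.
Myl9: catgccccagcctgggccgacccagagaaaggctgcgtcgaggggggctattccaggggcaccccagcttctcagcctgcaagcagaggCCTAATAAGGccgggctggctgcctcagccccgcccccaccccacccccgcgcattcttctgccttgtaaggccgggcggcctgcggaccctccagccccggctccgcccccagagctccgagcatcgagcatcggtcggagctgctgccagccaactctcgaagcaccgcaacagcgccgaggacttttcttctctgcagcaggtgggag
Srf: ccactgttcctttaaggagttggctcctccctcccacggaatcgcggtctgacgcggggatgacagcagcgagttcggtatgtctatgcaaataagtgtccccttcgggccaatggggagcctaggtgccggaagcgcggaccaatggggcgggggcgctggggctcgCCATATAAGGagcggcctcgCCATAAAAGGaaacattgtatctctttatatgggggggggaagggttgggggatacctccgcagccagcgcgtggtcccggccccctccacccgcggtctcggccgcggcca

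Of 16 epithelial and mesenchymal genes, 10 were lower and 2 were higher. Cdh1 (E-cadherin), which holds mESC colonies together, had 2525, 2576 and 2566 normalized counts in EMM and 8249, 8948 and 9379.8 in SL (-1.79 ± 0.068, adjusted p = 9.87e-13). The tight junction genes Cldn7 (39.4, 68.6 and 50.4 in EMM, 700.2, 720.3 and 727 in SL, -3.8 ± 0.15) and Cldn6 (-3.25 ± 0.17) and the epithelial splicing factor Esrp1 (-3.0 ± 0.24) fell further. Mesenchymal genes split. The 2 higher genes were among them: Zeb1, a repressor of Cdh1, had 369.7, 371 and 362 and 72.3, 76.4 and 72.9 (2.31 ± 0.11), and Vim (vimentin) had 8754, 9400 and 9353 and 3718, 3118 and 2441 (1.57 ± 0.16). Zeb2 (-3.39 ± 0.37), a relative of Zeb1, and the matrix protease Mmp2 (-2.05 ± 0.16) fell.

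Genes of antigen presentation were lower for 11 of 14 and higher for 1, with a median of -1.41, and 7 were lower with a minimum of 10 counts per library. Besides Psmb8, its partner subunit Psmb9 had 8.04, 3.12 and 4.58 normalized counts in EMM and 69.4, 102 and 64.8 in SL (-3.74 ± 0.51). Tap2, of the peptide transporter, had 16.1, 12.5 and 9.16 and 256, 228 and 161 (-3.99 ± 0.39), and H2-K1, a class I heavy chain with close paralogues, had 169.6, 195 and 153 and 943, 1080.4 and 936 (-2.51 ± 0.17). B2m, the light chain of class I, moved against the rest, with 506, 482 and 465 in EMM and 258, 265 and 273 in SL (0.87 ± 0.14, adjusted p = 6.78e-05).

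Among G1 genes, 5 of 15 were higher and 6 were lower, and the count of higher genes was 3 without EMM replicate 1 or SL replicate 3, with no filter on low counts, and with a minimum of 10 counts per library. Ccnd1 and Ccnd2, D-type cyclins, fell most. Ccnd1 had 127, 129 and 147 normalized counts in EMM and 2600.1, 2157 and 2164 in SL (-4.12 ± 0.11, adjusted p = 1.62e-14), and Ccnd2 had 7.23, 10.9 and 4.58 and 169, 128 and 183 (-4.34 ± 0.32). Ccnd1 shares 23.4% of its exon bases with a gene on the opposite strand whose log2 fold change was 0.42. Targets of p53 were lower for 9 of 14, or for 6 without EMM replicate 2, EMM replicate 3 or SL replicate 3. Among them were the cell cycle inhibitor Cdkn1a (456, 380.3 and 435 in EMM, 867, 939 and 804 in SL, -1.03 ± 0.088) and the death gene Bbc3 (-1.35 ± 0.12). The list had 1 higher gene, which was not higher without EMM replicate 1 or SL replicate 1, nor in DESeq2 or 4 of the other settings run. Of 18 apoptosis genes, 7 were lower and 1 was higher. Bcl2 (-2.38 ± 0.36) and the pro-death Bcl2l11 (-1.54 ± 0.15) fell, and Bcl2l1, a survival gene, rose (0.58 ± 0.11).

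Of 30 imprinted genes, 15 were lower and 4 were higher, and 8 were lower with a minimum of 10 counts per library. H19 and Igf2, which share an enhancer and are expressed from opposite parental copies, both fell: H19 had 29.7, 26.5 and 20.6 normalized counts in EMM and 932, 958 and 1208 in SL (-5.26 ± 0.30), and Igf2 had 51.4, 40.5 and 50.4 and 1849.8, 1485 and 1837 (-5.17 ± 0.38). Slc38a4 (-2.69 ± 0.16) and Magel2 (-3.04 ± 0.40) fell as well. The noncoding Kcnq1ot1 (1.4 ± 0.20) and Mirg (0.97 ± 0.092) rose. Among 11 DNA methylation genes, 5 were higher and 2 were lower. Dnmt3l, the cofactor of de novo methylation, had 14299, 16874 and 19813 in EMM and 6900.5, 6275 and 5474 in SL (1.45 ± 0.27), and Zfp57, which protects imprints, had 7400.2, 6972 and 9026 and 3049.5, 2919.8 and 3356 (1.33 ± 0.10), whereas Dnmt3b fell. Of 20 germline genes held silent by DNA methylation, 6 were lower and 1 was higher, with Tdrd1 at 19.3, 18.7 and 20.6 in EMM and 90.7, 82.3 and 101 in SL (-2.22 ± 0.29) and Stk31 the 1 higher (0.97 ± 0.21), where 2 were higher with no filter on low counts or with only the libraries of both groups.

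Of 83 cytosolic ribosomal protein genes, 20 were higher and 2 were lower, or 13 higher without SL replicate 1 and 1 lower without EMM replicate 3. The count of higher ones was 32 when only the libraries of both groups were fitted and 27 with no filter on low counts. Of 80 mitochondrial ones, taken by gene name with the pseudogenes Mrpl23-ps1 and Mrpl48-ps among them, 10 were higher and 1 was lower. The count of higher ones was 6 without EMM replicate 2, EMM replicate 3, SL replicate 2 or SL replicate 3. None was lower without EMM replicate 1, SL replicate 1 or SL replicate 3. With library totals alone 6 mitochondrial ones were higher and 5 lower, with no filter on low counts 7 and 6, and with a minimum of 10 counts per library 6 and 4, and 2 were lower in DESeq2, with its size factors in edgeR and with only the libraries of both groups. Among 10 regulators of mitochondrial biogenesis 1 was higher and 1 was lower. None of the 10 was lower without EMM replicate 2 or SL replicate 3, and 2 were without EMM replicate 3, with library totals alone, with no filter or a minimum of 10 counts per library, and in DESeq2. None of 7 clustered histone genes passed the edgeR test (1 had an unadjusted p under 0.05). DESeq2 called 1 lower, as did edgeR with library totals alone, with a minimum of 10 counts per library and with only the libraries of both groups, and edgeR with no filter on low counts called 2 lower.

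**Figure D4:**
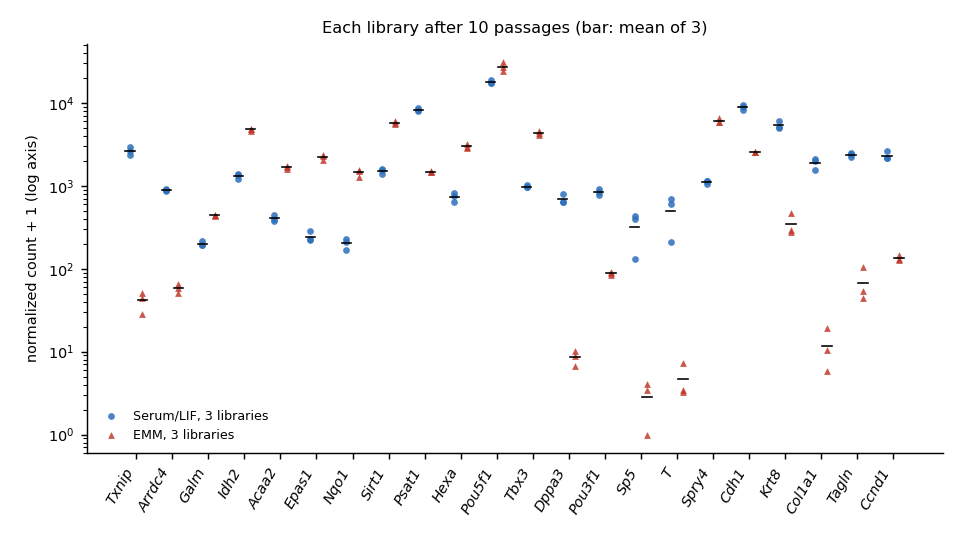
Normalized count plus 1, on a log axis, of 22 genes in each of the 3 SL (blue circles) and 3 EMM (red triangles) libraries at P10, with a bar at each mean. The groups do not overlap for any gene shown, and SL replicate 3 is the lowest SL point for Sp5 and T.

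The same comparison at P20 rests on 6 other libraries. At P20, 553 genes were higher in EMM (3.44%) and 993 were lower (6.19%), 9.63% in all, against 1070 and 1683 at P10. Of the genes higher at P10, 257 (24% of them and 46.5% of those at P20) were also higher at P20, and 563 of the lower genes (33.5% and 56.7%) were also lower. Another 17 genes were higher at P10 and lower at P20, and 26 were the reverse. Across the 16054 genes the log2 fold changes of P10 and P20 correlated with r = 0.54 (0.49 by Spearman's rank correlation), a description only, since genes are not independent replicates.

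The difference between the 2 EMM effects was tested in the same model as an interaction. The EMM effect was higher at P10 for 537 genes (3.34%) and lower for 812 (5.06%), 8.4% in all, by the same thresholds. With the adjusted p alone these counts were 1033 (6.43%) and 1329 (8.28%). In the naive list, 12 of 15 genes had a higher effect at P10, and the list's median was 0.83 at P10 and -0.15 at P20. Tbx3, for which the EMM libraries at P20 had 1500.5, 1498 and 1473 normalized counts and the SL libraries 1752, 1879.9 and 2266, had a log2 fold change of -0.40 there (difference 2.56 ± 0.12, adjusted p = 1.01e-10). Tfcp2l1 had -0.15 at P20 (difference 1.45 ± 0.14). Nanog, which did not pass the test at P10, was lower at P20 (-1.11, adjusted p = 4.41e-07), and its difference was 0.85 ± 0.15 (adjusted p = 0.000508).

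Formative genes showed the converse, with a lower effect at P10 for 11 of 17 and a higher one for 1, and medians of -1.28 at P10 and 0.10 at P20. Pou3f1 had 374, 407 and 469 normalized counts in EMM and 435, 416 and 398 in SL at P20 (difference -3.25 ± 0.16, adjusted p = 2.04e-10). Fgf5, lower at P10, was higher at P20 (1.56, difference -3.9 ± 0.41), and Dnmt3b had 0.024 at P20 (difference -1.46 ± 0.18). In SL itself the level of Pou3f1 was 781, 830.4 and 905 at P10.

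In the serum response list, 11 of 19 genes had a lower effect at P10 and 1 a higher one, with medians of -1.67 at P10 and -0.27 at P20. Cnn1 had 72.6, 95.7 and 79.8 normalized counts in EMM and 77.7, 65 and 98.9 in SL at P20, where it did not pass the test (adjusted p = 0.874, difference -5.12 ± 0.41). Tagln had a difference of -3.69 ± 0.32, and the epithelial genes Cldn7 (-3.94 ± 0.20), Esrp1 (-3.34 ± 0.31) and Cdh1 (-1.58 ± 0.093) had lower effects at P10 too. Vim turned from higher at P10 to lower at P20 (-0.68, difference 2.25 ± 0.22), and Gbx2 did the same (-1.1, difference 2.69 ± 0.20). Bmp4 (-0.43 at P20, difference 2.85 ± 0.28), Acaa2 (-0.24, difference 2.29 ± 0.13) and Epas1 (0.77, difference 2.43 ± 0.15) had higher effects at P10, and Ccnd1 a lower one (-1.71, difference -2.41 ± 0.14). In the hypoxia list Epas1 was the 1 gene with a higher effect at P10, and 4 of 15 had a lower one. At P20, 11 genes of that list were higher, beside 13.6% of all genes, and the median was 0.81, against 0.34 at P10. In the G1 list 3 of 15 genes had a higher effect at P10, and Ccnd1 was the 1 with a lower one.

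Genes outside these lists also differed between the passages. Matn1 (difference 4.68 ± 0.50), Nkx6-3 (4.49 ± 0.52), Trf (4.21 ± 0.29), Pla2g7 (3.87 ± 0.36) and Rapgef3 (3.64 ± 0.27) had higher effects at P10. Trf, which encodes transferrin, had 777, 874 and 777 normalized counts in EMM and 93.5, 91.3 and 67.1 in SL at P10, and 51.2, 59.3 and 43.5 and 107, 95.7 and 97.6 at P20. Nkx6-3 (3.14 at P10) and Rapgef3 (2.64) were higher at P10, and both were lower at P20 (-1.35 and -1.0). Psmb8, of the antigen presentation list, and Stmn4, Thsd7a and Oasl2 differed in the other direction. For Psmb8, Stmn4, Thsd7a and Oasl2 the EMM libraries at P10 had at most 3 counts, so that the sizes of their differences depend on the fit. Thsd7a was 60.4-fold lower at P10 (interval 20.4 to 295).

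Of 18 lysosome genes, 13 were higher at P10 and 13 at P20, with medians of 0.77 and 0.80, beside a background of 13.6% of all genes higher at P20. The EMM effect on 6 of the 18 differed between the passages, being higher at P10 for 2 and lower for 4. Arrdc4 had a log2 fold change of -4.02 at P20, and Txnip of -7.11. For Txnip the difference from P10 did not pass the test (0.96 ± 0.32, adjusted p = 0.0365). It passed in edgeR with no filter on low counts (0.89, adjusted p = 0.00166) and when only the libraries of the groups compared were fitted (adjusted p = 0.0082), and in DESeq2 (adjusted p = 0.00823). Sirt1 was higher at P20 as well (1.1, adjusted p = 2.74e-09), by less than at P10 (difference 0.84 ± 0.10, adjusted p = 6.38e-06).

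**Figure D5:**
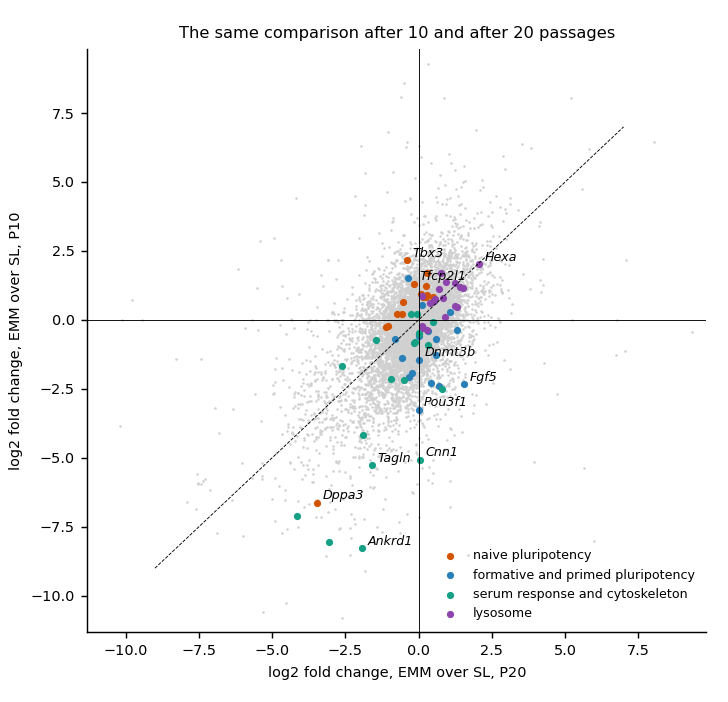
Log2 fold change of EMM over SL for every tested gene at P10 (vertical axis) against P20 (horizontal axis), with members of 4 lists coloured and a dashed line of equality. Most naive genes lie above the line and most formative and serum response genes below it, while lysosome genes lie on both sides of it.

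Against 2i/LIF at the same passage, 22.9% of tested genes were higher in EMM and 22.2% were lower (45.1% in all) with the adjusted p alone. The 2iL libraries place the EMM level of single genes. Spry4 had 76.9, 58.1 and 36.7 normalized counts in 2iL and was higher in EMM (6.82 ± 0.15). Dusp6 (3.47 ± 0.11) and Myc (3.26 ± 0.14) were also higher in EMM than in 2iL. Sp5, near 0 in EMM, had 2354, 2467 and 2345 in 2iL, and Dppa3 had 559, 553 and 1281 (-6.84 ± 0.60). Tfcp2l1 (-0.81 ± 0.10) and Nanog (-0.97 ± 0.11) were lower in EMM than in 2iL, and Tbx3 (0.79 ± 0.081) was higher. Txnip had 1353, 1076 and 984 in 2iL (-4.93 ± 0.21), Pou3f1 had 3.14, 7.26 and 6.52 (3.88 ± 0.22), and both Sirt1 (1.75 ± 0.072) and Epas1 (2.44 ± 0.11) were higher in EMM. The adjusted p of these tests was at most 1.5e-06, that of Tfcp2l1, and lower for Sp5 (1.2e-11).

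In the time course of the same study, a separate experiment whose table was normalized on its own, cells had been in EMM for 24 h. The values are set side by side with no test. Of 994 genes higher at P10 and tested in both experiments, 821 had a log2 fold change above 0 at 24 h, where 49.4% of all 14652 genes did, and of 1562 lower genes 1147 lay below 0. Arrdc4 was already at -3.91 after 24 h, Psat1 at -1.59 and Dnmt3b at -1.47, where they stood at -3.93, -2.47 and -1.43 at P10. Hexa stood at 1.54, Idh2 at 1.32 and Sirt1 at 0.88 at 24 h, each below its value at P10. Epas1 (0.18), Acaa2 (0.18), Spry4 (0.20) and Cldn7 (0.067) stood close to 0 at 24 h. Krt8 (0.81), Krt18 (0.91) and Acta2 (1.3) lay above 0 at 24 h and below 0 at P10.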

How the data were processed

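RNA-seq of E14tg2a mESCs was grouped by the titles in the labels. For the passage experiment the submitters' processing notes name STAR, Salmon and DESeq2 with mm10, and the authors deposited estimated counts per gene from their own alignment, of which 9.982% were not whole. The methods name HTSeq instead, and neither the annotation nor the strand setting of the counting is given in the sources used here. The time course was deposited as whole-number counts, for which the notes name STAR and featureCounts, and its table was fitted on its own.

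These estimated counts were rounded, filtered with filterByExpr and scaled by TMM in edgeR 4.0.16 (R 4.3.3). All 18 passage libraries entered 1 quasi-likelihood model with a mean per group, so that the 6 groups shared the estimate of spread. EMM was contrasted with SL at P10 and P20, EMM with 2iL at P10, and the difference of the 2 EMM effects was tested as an interaction, with Benjamini-Hochberg adjustment over 16054 genes. The SE after each ± was derived from the test, as the size of the log2 fold change over the square root of its F statistic. It is no measure of spread where a group had no counts. Normalized counts are counts scaled to the mean effective library size of the 18 libraries. Depth limits low genes most in EMM replicate 3. Log2 CPM used a prior count of 2.

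Genes were counted at an adjusted p under 0.01, and a change beyond 1 on the log2 scale for calls over all genes and with no fold minimum for list members. The genes named were the 12 largest rises and 12 largest falls with groups apart and a mean of at least 50 normalized counts in a group, up to 4 rises and 4 falls per list (all tested members of lists with up to 8), a set of regulators of pluripotency, lineage and metabolism, and the 5 largest differences between P10 and P20 in each direction. Some genes that these rules name are not reported here. List members added after their values were seen were Acta2, Axin2, Cdh1, Cnn1, Col3a1, Mmp2, Myl9, Phgdh and Srf, and the genes given for 2iL and 24 h were also picked then. The members and the 42 lists were chosen with earlier results of these data known. Lists are described by counts and medians and were not tested as sets.

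EMM and SL samples with the same number did not deviate together (correlations of -0.094, 0.021 and -0.017), so the numbers were not taken to pair them. The calculation was tested on simulated data. Alternatives were DESeq2 1.42.0, its size factors, library totals, other filters and thresholds, only the 2 groups, a replicate block and each library left out.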

Additional observations from a re-analysis of the deposited data

Results flagged for a closer look

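The EMM effect (EMM minus SL, log2) differed between P10 and P20 for many genes in the interaction test, being higher at P10 for 537 genes and lower for 812. Examples of genes with a higher effect at P10 by more than 1 are Matn1 (4.68), Nkx6-3 (4.49), Trf (4.21), Pla2g7 (3.87), Rapgef3 (3.64), Bmp4 (2.85), Gbx2 (2.69), Tbx3 (2.56), Epas1 (2.43), Acaa2 (2.29), Vim (2.25) and Tfcp2l1 (1.45). Examples with a lower effect at P10 by more than 1 are Cnn1 (-5.12), Cldn7 (-3.94), Fgf5 (-3.9), Tagln (-3.69), Esrp1 (-3.34), Pou3f1 (-3.25), Ccnd1 (-2.41), Cdh1 (-1.58) and Dnmt3b (-1.46). The fitted differences of Psmb8 (-8.19), Stmn4 (-7.27), Thsd7a (-6.12) and Oasl2 (-6.09) rest on EMM libraries with at most 3 counts at P10. The P10 and P20 libraries are separate samples, and what else differed between the passages was not tested.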

How the results depend on the processing

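No gene called at P10 changed sign under any alternative for the counts over all genes. With a minimum of 10 counts per library 597 genes were higher, 676 were lower and the effect was lower at P10 than at P20 for 445, where 11166 genes were tested. At an adjusted p under 0.01 with no fold minimum these counts were 3004 and 2997, and 1033 and 1329 for the differences between P10 and P20. With library totals alone the median of all genes moved to -0.087, and 902 were higher and 1876 lower, so that 32.5% of calls were higher in place of 38.9%. DESeq2 called 1022 higher and 1760 lower. Leaving out 1 library gave 967 to 1034 higher, 1483 to 1581 lower, 453 to 512 with a higher and 666 to 794 with a lower effect at P10. Of the 2753 genes called at P10, between 274 (without SL replicate 1) and 422 (without EMM replicate 1) then lost the call. The replicate number as a block gave 1056 and 1638 genes and 527 and 786 differences, and no sample correlated with its own number above 0.1. Signs turned where values were near 0: Mlx with library totals (-0.032), without a filter (-0.0046), with at least 10 counts (-0.0084) and in the range -0.064 to 0.20 without 1 library; Eomes (-0.45 to 0.11 without 1 library); and the medians of the primitive endoderm list (0.19 with at least 10 counts, -0.29 to 0.10 without 1 library), the ERK list (-0.019 to 0.21 without 1 library) and the mitochondrial biogenesis list (-0.047 with library totals, -0.020 without a filter, -0.024 with at least 10 counts). The cause was not tested. Depth limits genes with few counts in EMM replicate 3, the shallowest library.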

Other observations

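By chromosome, the median log2 fold change at P10 ran from -0.12 for the 590 tested genes of chromosome X and -0.097 for the 1251 of chromosome 11 to 0.072 for the 1020 of chromosome 4. On chromosome X 3.73% of genes were called higher and 17.1% lower, against 6.67% and 10.5% of all tested genes. At P20 the medians of chromosomes X and 11 were -0.12 and -0.13, and the highest was 0.13, for chromosome 8. These values are a description with no test.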
